A study of Mus musculus with 2 samples.

Results

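The regions described here are the 356 WT peaks that overlap a KO peak by at least 1 bp, out of 2251 peaks called in the WT library. They were selected from the called positions in both peak lists, so the overlap itself, and the values that follow from it, are given as a description without a test. The share is 15.8% of the WT list (95% Wilson interval 14.4 to 17.4%), and on the KO side 370 of 1153 peaks, 32.1%, took part in the overlap. The WT share depends on how far down the lists it is taken: it was 24.5% (283 of 1153) with the WT list reduced to the length of the KO list, and 23.6% (269 of 1141) with both lists at or above their median score. Both lists came from chromatin immunoprecipitation with sequencing, which enriches DNA fragments bound by a protein. The antibody was raised against GKLF, another name of KLF4, and the tissue was frozen BCA with atherosclerotic lesions. Each group, WT and KO, was 1 library. All mice were C57BL/6 and had received a Western diet, and the tissue is labelled as a mix of smooth muscle cells, epithelial cells, macrophages and other cells. The labels do not give the deleted gene, the cells that lost it, the age of the mice or the number of animals behind a library. A peak list holds no expression, so the labelled cell types could not be checked against marker levels. The shared peaks gave no check of the genotype either.

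KLF4 is a zinc finger transcription factor that binds short GC-rich DNA elements and is studied in smooth muscle cells for its part in the loss of contractile identity. In a ChIP experiment a library from a knockout of the antibody's target shows which regions are recovered where that protein is reduced or missing. The labels here do not say that KLF4 was the deleted gene. Regions called in both libraries are the calls that the genotype label did not separate at the authors' threshold. Each score is the authors' peak caller's own value, taken here to be −log10 of the p-value multiplied by 10, the scale of older MACS versions. It depends on the reads and background of its own library, so scores are compared only as ranks within a list. With 1 library a group there is no replicate error and no test between genotypes. The read depth behind the lists is unknown, and the intervals given are 95% Wilson intervals that cover counting error over peaks only.

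One of the 10 highest shared peaks overlaps known promoter sequence and is shown here because its letters can be read. The WT peak on chromosome 4 at 118546978 to 118548741 scored 2728, rank 10 of the WT list, and its KO partner at 118547057 to 118548739 scored 1403, rank 14 of the KO list. It lies in the span of the long noncoding RNA gene Gm40237 (gene 105244671), 2.94 kb from Tmem125, and covers the whole of the RefSeq promoter window chr4:118547156-118547455 (GRCm38.p6, plus strand), which runs from 250 bases before to 50 bases after an annotated start. The window is printed 5′ to 3′ with every match to GGGNGTG, letters found in KLF binding elements, in capitals.
Gm40237: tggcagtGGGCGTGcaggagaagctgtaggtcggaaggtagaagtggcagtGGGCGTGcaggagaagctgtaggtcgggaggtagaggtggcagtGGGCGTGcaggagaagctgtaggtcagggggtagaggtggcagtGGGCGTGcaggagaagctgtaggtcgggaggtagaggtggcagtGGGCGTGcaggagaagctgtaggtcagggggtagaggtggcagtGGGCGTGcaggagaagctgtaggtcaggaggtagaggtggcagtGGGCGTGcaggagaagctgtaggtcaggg

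The window is a tandem repeat. GGGNGTG occurs 7 times on the printed strand and 0 times on the other, always as the same 7 letters, and all 6 intervals between neighbouring matches are 44 bp. Bases 44 bp apart are identical at 96.1% of positions. Across all 32851 promoter windows of this length, 29.2% hold GGGNGTG on either strand, the median count is 0, and 9 windows hold 7 or more. Another Gm40237 window, at 118546889 to 118547188, overlaps the one shown and holds 3 matches. CACCC, also part of KLF elements, occurs on either strand in 57.5% of all windows and in neither Gm40237 window. GGGNGTG and CACCC can share bases where they meet on opposite strands. A match describes the letters and does not show a bound site.

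The other shared peaks that reach a promoter window do so at its edge, and their windows hold no GGGNGTG. In all, 4 of the 356 shared peaks overlap a window, 1.12% (0.438 to 2.85%), compared with 27 of 1895 WT-only peaks, 1.42% (0.981 to 2.07%). Of the 27, 10 overlap a window with GGGNGTG, with at most 3 matches in a window. The bases covered by the other shared peaks are printed on the strand of each gene, to show how little of each promoter the calls include. The Gm15564 stretch is chr16:35981798-35981860 (minus strand), from a WT peak that scored 1109. The Nufip2 stretch is chr11:77686157-77686188 (plus strand), from a peak that scored 175.8, and the Duxf3 stretch is chr10:58233276-58233339 (minus strand), from a peak that scored 61.6.
Gm15564: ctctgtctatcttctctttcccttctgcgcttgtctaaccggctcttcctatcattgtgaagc
Nufip2: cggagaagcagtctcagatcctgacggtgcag
Duxf3: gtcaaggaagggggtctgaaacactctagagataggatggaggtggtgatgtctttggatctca

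Gm15564 is a long noncoding RNA gene, Nufip2 encodes an RNA-binding partner of the fragile X protein, and Duxf3 belongs to the tandem Dux family of double homeobox genes. CACCC occurs 1 time in the full window of Gm15564 and 1 time in that of Duxf3, and 0 times in that of Nufip2. The Nufip2 peak covers 32 of 300 bases, the Gm15564 peak 63 and the Duxf3 peak 64.

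Scores of the shared peaks in both lists spread over most of each range. WT scores ran from 50.42 to 3218, with a median of 180.0, and the KO partners from 50.07 to 3100, with a median of 115.0. The median shared peak stood at percentile 80.7 of the WT list and its partner at percentile 83.5 of the KO list. Of the 356, 268 (75.3%) were in the upper 50% of both lists and 15 in the lower 50% of both. A further 61 were in the lower 50% of WT with a partner in the upper 50% of KO, and 12 the reverse. The rank correlation of WT score and highest partner score was Spearman's rho 0.72 over 356 peaks, and 0.74 over 289 merged loci. This is a description across regions, whose points share libraries and, in places, neighbours.

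**Figure D1:**
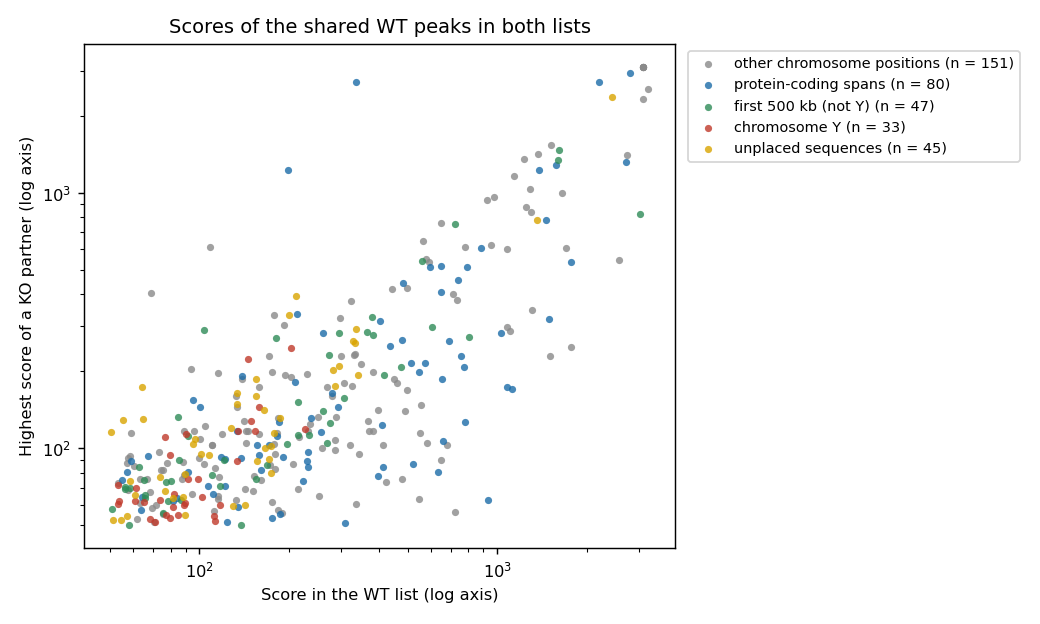
Each point is 1 of the 356 shared WT peaks, with its WT score on the x axis and the highest score of an overlapping KO peak on the y axis, both logarithmic and without unit. Colours give the position: 151 elsewhere on chromosomes, 80 in protein-coding spans outside the first 500 kb of sequence, 47 within it, 33 on chromosome Y and 45 on unplaced sequences. Chromosome Y peaks reach at most 227 in WT, while each of the other classes has peaks above that score.

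The head of both lists was shared. All 10 of the highest WT peaks and all 10 of the highest KO peaks had a partner, as did 45 of the 50 highest WT and 50 of the 50 highest KO peaks. Among the 100 highest the counts were 78 in WT and 99 in KO. By decile of WT score the share fell from 55.3% (48.8 to 61.6%) through 25.8% and 20.9% to 4.44% (2.43 to 7.99%) in the lowest. In KO the first 4 deciles held 99.1%, 84.3%, 63.5% and 32.8%, and the lowest 5 held 1.74 to 6.90%.

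**Figure D2:**
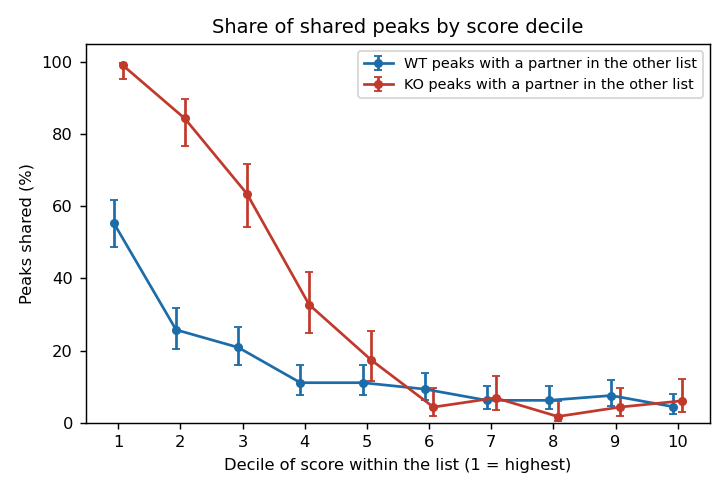
Share of peaks with a partner in the other list (y axis, percent) by decile of score within each list (x axis, 1 is the highest), for WT in blue and KO in red; bars are 95% Wilson intervals over peaks. The KO curve starts at 99.1% and the WT curve at 55.3%, and both end below 7%.

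The 10 highest shared peaks lay mostly between protein-coding genes. The highest WT peak of all, on chromosome 14 at 19417335 to 19419705, scored 3218 in WT and 2535 in KO, and no protein-coding gene lay within 10 kb. A set of 6 WT peaks tied at 3100, and the KO partners of 5 of these were also at 3100, the highest KO score. These 5 lay on chromosome 1 at 24611533 to 24616228, on chromosome 2 at 98662208 to 98663002 and at 98666227 to 98667337, on chromosome 9 at 35305198 to 35305630 (lncRNA gene Gm33838) and on chromosome 12 at 97061426 to 97061836. The remaining one, on chromosome 15 at 75085947 to 75087107, had a KO score of 2326. The peak on chromosome 1 was 4696 bp wide in WT and 4650 bp in KO, and it overlaps the annotated pseudogenes Gm10222 and Gm10925, which are known as nuclear copies of mitochondrial DNA. The lists hold 0 peaks on the mitochondrial sequence itself, and no repeat annotation was used here.

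The 10 highest peaks within 10 kb of a protein-coding gene lay in or near genes with varied roles, among them Myo3a and the neighbours of the Gm40237 peak, Tmem125 and Cfap57. Chl1 (neural cell adhesion molecule) had 2799 in WT, rank 9, and 2927 in KO, rank 6. Aida, which encodes an axin-binding protein, had 2721 and 1322, ranks 11 and 17. Lars2, the mitochondrial leucyl-tRNA synthetase gene, had 1774 in WT (rank 15) and 536.5 in KO (rank 41). The KO peak covered 68.2% of the WT peak in Chl1, 99.8% in Aida and 55.2% in Lars2, with midpoints 6, 2 and 41 bp apart. In Cdk5rap2, a centrosome protein gene, the call spanned 70378056 to 70378258 of chromosome 4 and scored 1576 in WT and 1276 in KO. In Cdk8, which encodes a kinase of the Mediator complex, it spanned 146260991 to 146261331 of chromosome 5 and scored 1490 and 320.1. In Cldn34d, a claudin family gene, it spanned 76598852 to 76599227 of the X chromosome and scored 1461 and 782.2. The peak nearest Tra2a, a splicing factor gene, lay 7.36 kb from it on chromosome 6 at 49236448 to 49236682, with 1312 in WT and 347.7 in KO. The Cdk8 peak was rank 27 in WT and its partner rank 62 in KO, and the Cdk5rap2 pair held ranks 24 and 18.

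The highest KO scores not yet named belonged to peaks that also stood high in WT, apart from a Myo3a peak described with its locus. On an unplaced sequence, GL456389, the peak at 10349 to 10907 scored 2433 in WT (rank 13) and 2362 in KO (rank 9). A peak of 133 bp on chromosome 2 at 69355536 to 69355668 scored 1512 in WT and 1537 in KO, ranks 25 and 11, and was exactly as wide in KO. The call at the first bases of chromosome 9, 2999999 to 3001146, scored 1614 and 1470, ranks 22 and 12, and was 1148 bp wide in both. On the X chromosome the peak at 143482928 to 143483119 scored 1369 and 1417, ranks 30 and 13.

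Some members ranked very differently in the 2 lists. Of the 356, 192 (53.9%) differed by at most 10 percentile points, 14 were more than 30 points higher in WT and 54 more than 30 points higher in KO. The examples were chosen after their values were seen. The peak in Ppp2r2b (a phosphatase regulatory subunit gene) on chromosome 18 at 42975776 to 42976046 scored 308.9 in WT, percentile 90.8, and 51.26 in KO, percentile 3.43. The Nufip2 peak was at percentile 79.9 in WT and 20.2 in KO. In the other direction, the peak at 6025 to 6253 of the unplaced sequence GL456383 scored 50.42 in WT, percentile 0.289, and 115.5 in KO, percentile 83.7. These are single calls in 1 library each, and ties are common in KO, where 7 shared KO peaks have the score 116.7 and 6 have 102.7.

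Partners lay close together in position, which the overlap rule by itself partly requires. The 356 WT and 370 KO peaks formed 376 overlapping pairs. A single KO partner was found for 336 WT peaks and 2 partners for 20, and 326 pairs were exclusive in both directions. The median shared WT peak was covered by KO peaks over 80.1% of its length, and the median KO peak of a pair was covered completely. Exclusive partners had midpoints a median of 21 bp apart, 281 of 326 within 50 bp. The WT peak was the wider in 262 of them, the KO peak in 58, and 6 were equal, with a median excess of 37.5 bp in WT. Which bases a caller joins into 1 peak depends on depth, which is unknown here, so the widths do not compare the genotypes.

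**Figure D3:**
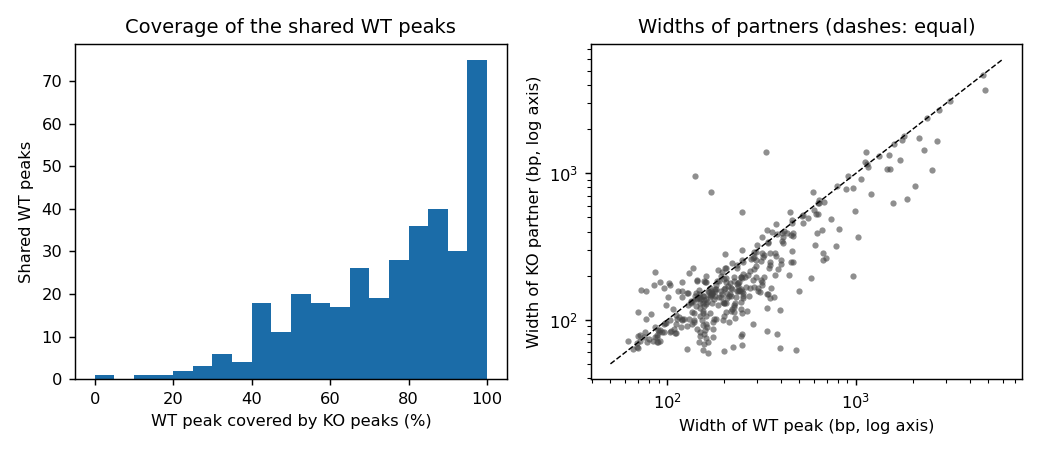
Left, number of shared WT peaks (y axis) by the percent of their length that KO peaks cover (x axis). Right, width in bp of each shared WT peak (x axis) against its highest-scoring KO partner (y axis), both logarithmic, with equal widths on the dashed line. Most points lie on or under the line, and 309 of 356 peaks are covered by 50% or more.

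Few members sat at the edge of the 1 bp rule. The weakest overlap was 2 bp, at the X chromosome peak 123930658 to 123930796 with 75.49 in WT and 55.22 in KO. The next were 31 bp on chromosome 1 at 85555364 to 85555615 and 56 bp on chromosome 10 at 85025902 to 85026029. Just outside, WT-only peaks lay 4 bp from a KO peak on chromosome 7 at 59770051 to 59770146, 10 bp on chromosome 7 at 141639582 to 141639835 and 30 bp on chromosome 6 at 44793116 to 44793318. In all, 16 of 1895 WT-only peaks were within 100 bp of a KO peak.

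Shared peaks were broad. Their median width was 213.5 bp (quartiles 148 and 349.2) compared with 154 bp (124 and 190) for WT-only peaks. Of 31 WT peaks of 1 kb or more, 27 were shared, 87.1% (71.1 to 94.9%). Of 276 under 100 bp, 38 were, 13.8% (10.2 to 18.3%), near the 15.8% of all WT peaks. A broad peak meets a second list more easily, so width and the selection are not independent. Score and width went together more among shared peaks (rho 0.35, n = 356) than among WT-only peaks (rho 0.10, n = 1895), as a description across peaks.

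Neighbouring calls reduced the number of separate sites. When peaks at most 1 kb apart were joined, the 356 peaks made 289 loci. Of these, 249 held 1 shared peak, 24 held 2 and 16 held 3 or more, and 107 peaks (30.1%) lay in loci of 2 or more. For WT-only peaks, 491 of 1895 (25.9%) did. The locus richest in calls was on chromosome 18 at 3004224 to 3006567, with 6 shared WT peaks that scored 58.12 to 416.2, 6 KO peaks that scored 50.07 to 326.3 and no WT-only peak.

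Myo3a, which encodes an unconventional myosin of the inner ear, held the most shared peaks of any protein-coding gene. The 5 WT peaks lay within 2783 bp of a gene span of 390750 bp and scored 185.2 to 2205. They met 3 KO peaks that scored 126.8 to 2696, and 2 of these KO peaks each overlapped 2 WT peaks. The WT peak at 22588812 to 22589144 scored 335.6, rank 186, and its partner 2696, rank 7, which it shared with the WT peak at 22589150 to 22590286 (2205). No WT-only peak lay in the span. On chromosome 2 at 98662208 to 98667337, between genes, 4 WT peaks (562.4 to 3100) faced 4 KO peaks (401.2 to 3100) over 2774 and 2799 bp. On chromosome 17 at 39842994 to 39848886 the calls covered 5891 bp in WT and 5800 bp in KO, across Rn18s-rs5, a copy of 18S ribosomal RNA sequence, and AY036118, a long noncoding RNA gene. There the WT scores were 191.7 and 2558 and the KO scores 302.7 and 544.0. The pseudogene Gm20590 on chromosome 13 held 4 shared peaks (205.5 to 279.0) and 2 WT-only peaks, against 5 KO peaks (86.9 to 196.1). In all, 7 loci held 4 or more shared peaks. The others among them were chromosome 2 at 181929026 to 181930985, with 5 peaks in each list, and chromosome 16 at 3349901 to 3351523 and chromosome Y at 4150177 to 4151709, with 4 in each list. A further 9 loci held 3 shared peaks, 8 of them with 3 KO peaks and 1, on chromosome 9 at 3018034 to 3021446, with 4. The 3 of these 9 with the highest WT scores were chromosome 17 at 13550614 to 13553212 in 2700054A10Rik, a lncRNA gene (up to 1648 in WT and 992.4 in KO), chromosome 4 at 80002681 to 80003999 (977.4 and 957.1) and chromosome 13 at 85126722 to 85127387 (731.8 and 379).

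**Figure D4:**
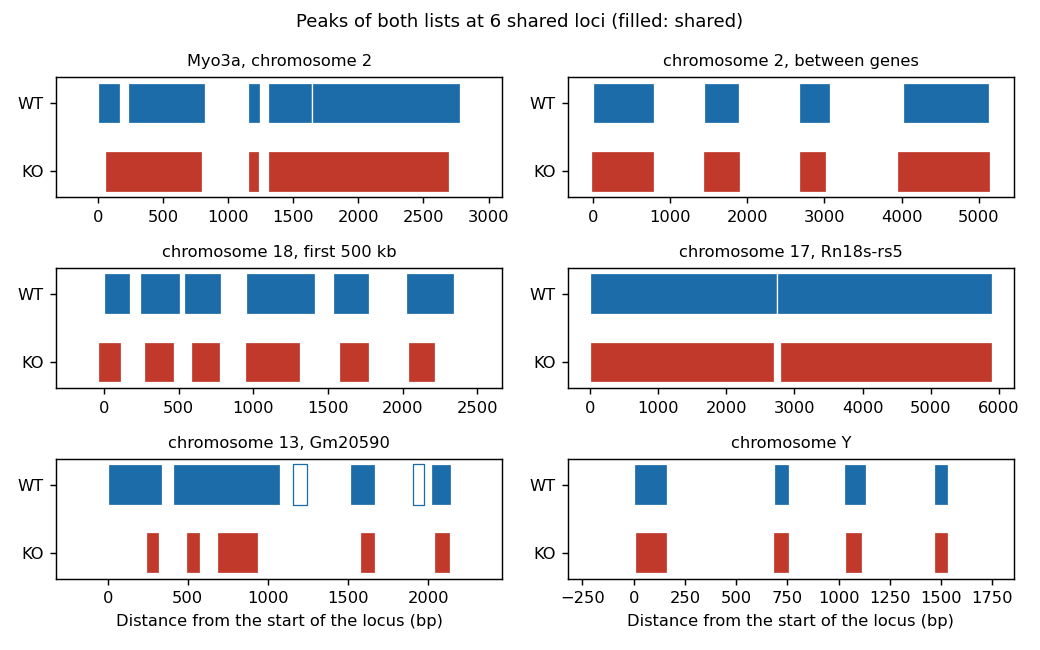
WT peaks (blue, upper row) and KO peaks (red, lower row) at 6 loci, by distance in bp from the first base of the locus; filled bars are shared and open bars WT-only. At the 4 calls between genes on chromosome 2 the bars of both rows nearly coincide, and open bars appear only at Gm20590, in 2 places.

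Stretches with several shared calls lay at chromosome starts, on chromosome Y, on unplaced sequences and at a few other places. Joining peaks at most 100 kb apart gave 14 stretches with 5 or more shared peaks, which held 102 of the 356 peaks, and 5 of the 14 were unplaced sequences. The one with the most shared peaks was the first 38.4 kb of sequence on chromosome 9, at 2999999 to 3038426. It held 14 shared peaks, 1 WT-only peak and 23 KO peaks, of which 4 were KO-only. The WT scores of the shared peaks ran from 62.67 to 1614, with a median of 243.4, and their widths from 234 to 2534 bp.  Another, on chromosome 2 at 181917359 to 181932503, held 9 shared peaks and 1 WT-only peak, with a median WT score of 160.4, and included 2 peaks in Gm40034. On chromosome 17 at 13550614 to 13655271, 7 shared peaks scored 108.1 to 1648.

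Peaks near the start of a chromosome were largely shared. In this build the sequence of each autosome and the X chromosome starts at about 3 Mb, on the side of the centromere, and the lowest called base was 2999999. Within the next 500 kb lay 72 WT peaks, of which 47 were shared, 65.3% (53.8 to 75.2%), and 53 of 64 KO peaks, 82.8% (71.8 to 90.1%). Over all autosomes and X the shares were 14.0% (12.5 to 15.6%) in WT and 28.8% in KO. These 47 made up 16.9% of the 278 shared peaks on those chromosomes, against 1.46% of WT-only peaks. They came from 11 chromosomes, led by chromosome 9 with 14 of 16 WT peaks, chromosome 16 with 8 of 14, chromosome 10 with 6 of 8, chromosome 18 with 6 of 6 and chromosome 11 with 5 of 15. The stretch was chosen after the positions were seen. A peak on chromosome 6 at 3200687 to 3201648 was the highest of them, with 3021 in WT and 825.5 in KO.

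Unplaced and unlocalised sequences, pieces of the assembly without a position on a chromosome, also held mostly shared calls. Of 73 WT peaks there, 45 were shared, 61.6% (50.2 to 71.9%), and of 53 KO peaks 46, 86.8% (75.2 to 93.5%). GL456383 had 9 of 10 WT peaks shared, JH584304 had 7 of 8, GL456396 had 6 of 8, GL456389 had 6 of 9, GL456390 had 7 of 14, GL456393 had 4 of 8 and GL456370 had 3 of 3. The median of the 45 was 133.3 in WT and 114.8 in KO. On JH584304 a single WT peak at 109465 to 114316 was 4852 bp wide, the widest shared peak, and scored 1358 in WT and 781.7 in KO.

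On chromosome Y, 33 of 193 WT peaks were shared, 17.1% (12.4 to 23.0%), beside 14.0% over autosomes and X, and 33 of 91 KO peaks, 36.3%. The shared calls had a median score of 89.02 in WT and 64.8 in KO, at median percentiles 50.7 and 64.0 of the lists, below the 80.7 and 83.5 of all shared peaks. The highest WT score was 227.0. Of the 33, 28 lay below 13 Mb, and 7 of those within 8.77 kb at 4150177 to 4158946, where 1 WT-only peak was called. A longer stretch at 6668608 to 6843469 held 8 shared peaks among 40 WT-only and 10 KO-only peaks. At the other end, 4 shared peaks lay between 90763602 and 90775446, of which the peak at the lower coordinate was in the pseudogene Mid1-ps1, a partial copy of Mid1. Their WT scores were 91.26, 148.5, 81.47 and 203.4. On the X chromosome the matching end held 3, in Mid1 (106.7 in WT, 71.09 in KO), at 170001018 to 170001128 (116.6 and 77.4) and in Asmt, the last enzyme gene of melatonin synthesis (209.9 and 181.4). Mid1 encodes a ubiquitin ligase and crosses the boundary of the region that X and Y share.

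**Figure D5:**
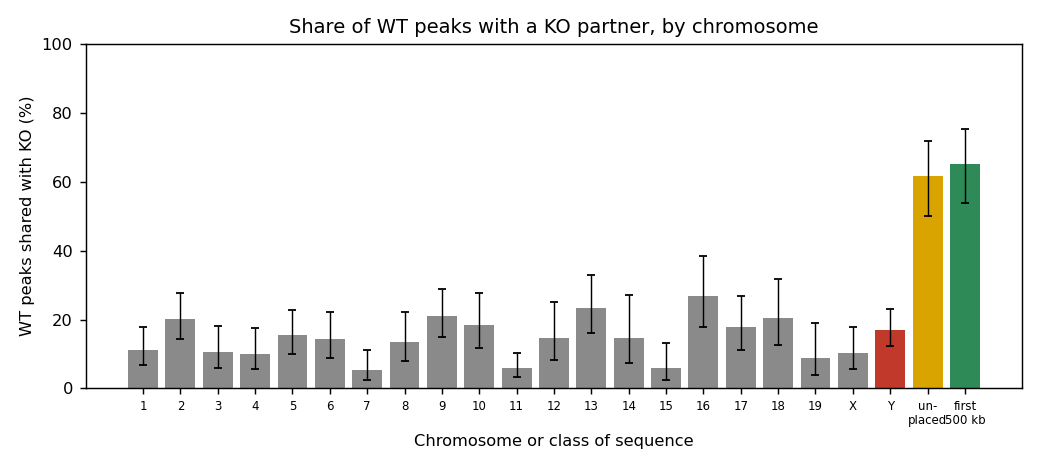
Percent of WT peaks that overlap a KO peak (y axis) for each chromosome, for unplaced sequences and for the first 500 kb of sequence on autosomes and X, which those chromosomes' bars also contain; bars are shares and whiskers 95% Wilson intervals over peaks. Single chromosomes run from 5.31 to 26.9%, below the 61.6% of unplaced sequences and the 65.3% of the first 500 kb.

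The share varied between chromosomes. It was lowest on chromosome 7 with 6 of 113 WT peaks (5.31%, 2.46 to 11.1%), chromosome 11 with 11 of 187 (5.88%) and chromosome 15 with 5 of 84 (5.95%). It was highest on chromosome 16 with 18 of 67 (26.9%, 17.7 to 38.5%) and chromosome 13 with 22 of 94 (23.4%). On chromosome 16, 8 of the 18 lay in the first 500 kb of sequence.

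Most shared peaks were away from annotated genes. Of the 311 on chromosomes, 190 had their midpoint in no annotated span, 61.1% (55.6 to 66.3%), compared with 18.5% (16.8 to 20.4%) of 1867 WT-only peaks. Protein-coding spans held 83 shared peaks, 26.7% against 63.3% of WT-only peaks. Pseudogene spans held 12, 3.86% (2.22 to 6.62%) against 21.0% (19.3 to 23.0%). Spans of lncRNA genes outside protein-coding ones held 25, 8.04% (5.50 to 11.6%) against 2.84% (2.18 to 3.69%). The median distance to the nearest protein-coding span was 31.4 kb (22.5 to 47.9) for shared peaks and 0 kb for WT-only peaks, and 37.0% and 14.0% lay more than 100 kb away. These are shares within 1 library, with intervals for counting error over peaks, and neighbouring peaks are not independent.

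In the spans of 71 protein-coding genes, 0.326% of the 21779 in the annotation, lay a shared peak, and 103 genes, 0.473%, had one within 10 kb. In 64 of the 71 (90.1%) no WT-only peak was called in the span. Of all 21779 genes, 1362 (6.25%) had any WT peak within 10 kb. Most genes therefore hold no WT-only peak, and the 64 show no trait of these genes. Of the 71, 11 genes held 2 or more shared peaks. D5Ertd579e and Gm32584, which overlap on chromosome 5, held the same 3 shared peaks, with 650.0, 403.0 and 123.7 in WT and 407.4, 315.5 and 51.44 in KO. Cmss1 and Filip1l overlap on chromosome 16 and held the same 2, up to 1030 in WT and 283.1 in KO, beside 1 WT-only peak. Smo, which encodes the signal transducer of the Hedgehog pathway, held 2 adjacent calls on chromosome 6 between 29747859 and 29749040, with 278.4 and 881.6 in WT and 164.9 and 607.8 in KO. Jarid2, a partner of a Polycomb repressive complex, held 2 on chromosome 13 between 44869569 and 44870026, with 654.6 and 522.6 in WT and 186.9 and 86.69 in KO. E030030I06Rik on chromosome 10 held 2, up to 688.7 in WT and 263.3 in KO, and Dlgap2, a postsynaptic scaffold gene, held 2, up to 255.8 and 115.9.

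Of these 11 genes, Sfi1 and Tmem267 held more WT-only than shared peaks. Sfi1, a centrosome protein gene on chromosome 11, held 3 shared peaks and 6 WT-only peaks, against 5 KO peaks. The shared ones were 614 to 2673 bp wide and scored 110.5 to 233.4 in WT. They are among the 5 shared peaks of chromosome 11 already counted in the first 500 kb of sequence. Tmem267 held 2 shared and 3 WT-only peaks, against 4 KO peaks, with up to 222.9 in WT and 74.24 in KO. In tandem gene families, 3 shared peaks lay on chromosome 10 between 58223904 and 58239714 around Duxf3, with 63.58, 61.63 and 87.68 in WT. WT-only peaks were called there too, 2 in the span of LOC100504180 and 1 in that of Duxf3. The imprinted lncRNA gene Snhg14, host of clustered small nucleolar RNAs, held 3 shared peaks on chromosome 7. They had 151.0, 72.89 and 103.3 in WT and 67.87, 96.49 and 86.79 in KO. WT-only calls lay among them, such as that at 59770051 to 59770146.

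Gene lists chosen for this tissue held 1 gene with a shared peak. The lists named 117 annotated genes for matrix, contractile apparatus, smooth muscle regulators, the KLF family, pluripotency, lipid handling, the Y chromosome and 6 other cell types. Of these, 1 had a shared peak within 10 kb, against 0.473% of all protein-coding genes. Any WT peak there was found for 27, against 6.25% of all genes. The lists were chosen with earlier results of these data known, so the 27 are not read as an enrichment. The 1 was Chl1, listed among neuronal genes with its peak already known. Matrix genes had 0 of 16 with a shared peak and 10 with any WT peak, and contractile genes 0 of 13 and 6. Macrophage genes had 0 of 7 and 2, fibroblast genes 0 of 5 and 3, and endothelial genes 0 of 6 and 0. The KLF family had 0 of 17 for both. Klf4 (chromosome 4, 55527137 to 55532475) was 8965 kb from the nearest shared peak, at 64497776 to 64498069. At a share of 0.473% a count of 0 in lists of this size is no sign of a deficit.

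Among genes outside the lists with a single shared peak, 2 are given as examples, chosen after their values were seen. Flt1, which encodes a vascular endothelial growth factor receptor, carried the call at 147611434 to 147611580 of chromosome 5, with 54.88 in WT, rank 2055, and 74.92 in KO, rank 336. Col6a6, a collagen VI chain gene, had one on chromosome 9 at 105819412 to 105819560 with 237.5 and 131.1. The Flt1 call was near the lowest score of the WT list, 50.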

How the data were processed

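The measurements were peak lists from 1 WT and 1 KO ChIP library, 1 list each, with groups from the sample labels. The build was mm10, and the tools included SAMtools 0.1.18 and Bowtie 1.0, per the submitters' processing notes. The deposited score of each peak was made by the authors' peak caller, MACS by the peak names, and is read as 10 times −log10 p. Not given in the sources used here were the MACS version, its threshold, any control library and the read depth.

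Overlaps were computed with bedtools 2.31.1 and Python 3.11.15 (pandas 2.3.3, numpy 2.4.6, scipy 1.17.1, matplotlib 3.10.9), with a minimum of 1 bp and any sequence allowed. Where a WT peak had several KO partners, the highest score was used. Gene spans and promoter windows were RefSeq (GRCm38.p6, the same assembly as mm10), and 340 gene records below 3 Mb were left out because their coordinates belong to unlocalised pieces. The overlap code was checked on simulated lists. Members and gene lists were chosen with earlier results of these data known. Named items were the 10 highest peaks, the 10 highest within 10 kb of a protein-coding gene, the 5 highest KO partners not yet named, genes with 2 or more shared peaks, the 10 loci with the most shared peaks (ties by WT score), list members with a shared peak, Klf4, and 3 peaks on either side of the overlap rule. Others are stated as chosen after their values were seen or illustrate a class of sequence. Alternatives varied the overlap, score threshold, list length, sequences, merging distance, gene window and unit.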

Additional observations from a re-analysis of the deposited data

How the results depend on the processing

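With 33 alternatives over the reported results, 32 stayed within the limits set for a change. For counts the limit was a fixed fold of the main value, and for shares and medians its 95% interval. The number of shared WT peaks was judged as a count only, not by its share of the list. The number of shared WT peaks ran from 269 of 1141 (23.6%), with both lists at or above their median score, to 372 of 2251, with a gap of up to 100 bp allowed. With the WT list reduced to the KO length it was 283 of 1153 (24.5%). The count thus fell while the share rose from 15.8% to above its 95% interval. Loci numbered 326 at a gap of 100 bp and 232 at 10 kb. The exception under these limits was the share of shared peaks on chromosome Y. That share was 9.27% with all peaks and 5.58% with both lists at or above their median score, and the cause was not tested. For chromosome starts, 16.9% with all peaks, the share was 18.5% with 50% of both peaks covered, 17.3% with 1 Mb in place of 500 kb, 13.5% at or above the median scores, and 29 of 223 over merged loci. These and the count over merged WT loci, 285, were chosen after seeing the data. No paired analysis was possible because each group has 1 library, and no library could be left out. The comparison of windows within peaks was not run, since no genome was used here. Depth is unknown, so weak calls in 1 list cannot be told from missed calls in the other.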
